A study of Mus musculus with 5 samples.

Results

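The additional DNA lost in the longer of 2 boundary deletions next to the Dppa2/4 domain of mouse chromosome 16 is described here by setting the 350 kb deletion library directly against the 45 kb deletion library. The measurement is 4C-seq, which counts the ligation partners of 1 chosen fragment, the bait, so that a higher signal at a place means that it was caught next to the bait more often. The members are the 5-kb windows of the deposited inbred table that both lines can carry. Of 19951 windows, 19885 were kept. The 66 windows from 47.90 to 48.23 Mb (mm9), missing in at least 1 of the lines, were left out. A gap of 100 kb around the bait, from 48.555 to 48.655 Mb, has no windows in the table. Both columns were rescaled to the same total over the kept windows.

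Each group is 1 library of mouse embryonic stem cells (mESC), so no value has a replicate check and no test was made. The wild type is the line 46C, described in the labels as grown in serum with LIF. The other groups are labelled only as boundary deletions of 45 kb and 350 kb, made by CRISPR. The labels used here do not give their parent line, clone number or whether 1 or both chromosomes are deleted. In the table the deletions span 45 kb (48.185 to 48.23 Mb) and 330 kb (47.90 to 48.23 Mb), so they share the end near the bait and differ at the far end. The authors' smoothing had set these windows to 0, so the zeros cannot show how complete either deletion was. The wild type library is given as a level beside the deletions.

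Mammalian chromosomes are folded into domains, stretches whose DNA touches itself more often than its neighbours. The limits between domains, called boundaries, often hold bound CTCF and cohesin, and loss of a boundary is known to let contacts spread into the next domain. Dppa2 and Dppa4 encode chromatin-bound proteins of pluripotent cells, and the series concerns elements in cis that control when and where DNA replicates. In the RefSeq gene order of GRCm38.p6, Dppa4 and Dppa2 are followed at higher coordinates by Morc1, a germline transposon-silencing gene, then Trat1 and the resistin-like genes Retnlb, Retnla and Retnlg. At lower coordinates the next protein-coding entries are Gm52257 and Nectin3, a cell adhesion gene. No annotation of mm9 was used here, so windows are named by position and no gene was placed on them. Upstream means lower coordinates throughout.

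The inbred bait is defined by a primer pair that the labels give alike for all 3 inbred libraries. It is shown because every value below counts contacts of the fragment it reads from. The capitals mark the last 4 bases of the forward primer, which match the start of AAGCTT, the site of HindIII, the first enzyme of the protocol. Neither primer holds the whole site or GATC, the site of DpnII, the second enzyme.
Forward: agcgtgaggtacatgaAAGC
Reverse: cctgaagagctggtaccaaa
The general protocol text names another primer pair, and the primers were not placed on the genome here. Distances are therefore taken from the centre of the gap, at 48.605 Mb.

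The deposited values are running means over 30 windows, or 150 kb. With the smoothing reversed, 100% of values were whole reads within 0.01, in total 1772088 reads for the 45 kb library, 1465714 for the 350 kb library and 1714005 for wild type. Over the kept windows these were 1703339, 1465714 and 1639636. Such recovered reads are called own reads below, and their 95% exact binomial intervals cover counting error alone, because several reads can come from 1 ligated molecule. Own reads fell in 5820 kept windows in both deletion libraries, in 2094 in the 350 kb library alone and in 2222 in the 45 kb library alone. Some signal was present in 18930 kept windows in at least 1 of the deletion libraries, and 955 windows were at 0 in both.

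The additional loss went with a larger share of contacts upstream of the deletion and a smaller share downstream. The profile was nearly the same in the stretch kept between the deletion and the bait. Both columns were scaled to the same total, so a larger share on 1 side comes with smaller shares elsewhere. From 0.5 to 10 Mb upstream the 350 kb library held 22.2% of its kept signal and the 45 kb library 17.5%, a difference of 4.73 percentage points. Over the same distances downstream it held 9.92% against 11.2%, lower by -1.25 points. The stretch between the deletion and the bait gap held 21.9% against 23.1%, lower by -1.14 points. The higher share was thus on 1 side of the bait and beyond the deleted DNA.

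**Figure D1:**
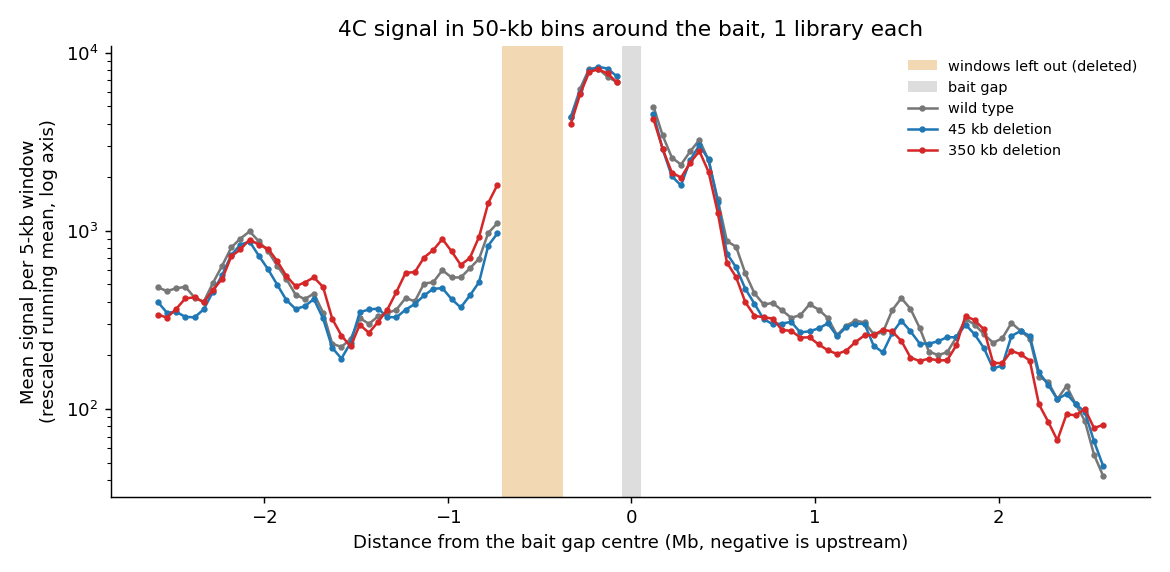
Mean signal per 5-kb window in 50-kb bins (log axis) against the distance from the bait gap centre, for wild type (grey), the 45 kb deletion (blue) and the 350 kb deletion (red), 1 library each. In the 10 bins directly left of the deleted windows (tan) the red line lies above both others, while between them and the gap (light grey) the lines nearly coincide.

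A difference lay directly beside the deletion, in the 500 kb from 47.40 to 47.90 Mb. Mean signal there was 530 in the 45 kb library, 927 in the 350 kb library and 651 in wild type, so the 350 kb library was above and the 45 kb library below wild type. The log2 ratio of 350 kb to 45 kb was 0.81. In own reads it was 0.74 (95% counting interval 0.73 to 0.76), from 70693 against 49059 reads. As a share of all kept reads this stretch held 2.88% (2.86 to 2.90%) in the 45 kb library and 4.82% (4.79 to 4.86%) in the 350 kb library.

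All 10 bins of 50 kb in this flank were higher in the 350 kb library by more than 0.5 on the log2 scale, from 0.59 to 0.92 with a median of 0.79. Over all 95 bins within 5 Mb of the bait with at least the median signal, 13.7% were past 0.5 upward and 1.05% past it downward. In the running mean the 350 kb library was also above wild type in all 10 flank bins, and the 45 kb library was below it. Own reads, as shares of kept reads, did not keep this order in every bin. Wild type was the lowest at 47.45 to 47.50, 47.55 to 47.60 and 47.85 to 47.90 Mb. At 47.65 to 47.70 Mb wild type was above both deletion libraries. Between the deletions, own reads kept the direction in all 10 bins, from 0.34 to 1.21, and 8 of 10 were past 0.5. Outside the flank, 23 bins of chromosome 16 had at least the signal of its lowest bin, and 0 of those were past 0.5 in either direction, with a median of -0.05.

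The bin touching the deletion, 47.85 to 47.90 Mb, had a signal of 968 in the 45 kb library, 1814 in the 350 kb library and 1105 in wild type, a log2 ratio of 0.91. Its own reads, 16677 against 13615, gave 0.51 (0.48 to 0.54), a smaller ratio. The authors' running mean skipped deleted windows, so close to the deletion the 350 kb column averages in windows that lie nearer to the bait, and the own reads are the better measure there. With 75 kb on both sides of the deletion left out, the flank was still at 0.79.

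The next bin, 47.80 to 47.85 Mb, had the highest ratio of the flank in own reads. Its signal was 827, 1435 and 974 in the 45 kb, 350 kb and wild type libraries, and its own reads, 6782 against 3415, gave a log2 of 1.21 (1.15 to 1.27). At 47.60 to 47.65 Mb the signal was 414, 768 and 548 in the same order, with an own-read log2 of 1.11 (1.06 to 1.17). The lowest own-read ratio of the flank was at 47.65 to 47.70 Mb, with 371, 644 and 547 and a log2 of 0.34 (0.26 to 0.43). Its deposited ratio of 0.79 therefore came largely from its neighbours, which the running mean mixes in.

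The highest deposited ratio was at 47.55 to 47.60 Mb, with a signal of 477 in the 45 kb library, 899 in the 350 kb library and 601 in wild type. The log2 was 0.92 in the running mean and 0.79 in own reads. At 47.75 to 47.80 Mb the signal was 515, 927 and 697, with log2 values of 0.85 and 0.81. At 47.70 to 47.75 Mb it was 434, 705 and 616, with 0.70 and 0.62. The remaining 3 bins, from 47.40 to 47.55 Mb, were between 0.59 and 0.72 in the running mean and between 0.40 and 0.94 in own reads.

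In the flank the libraries differed in reads per window more than in the number of windows reached. Of its 100 windows, 61 had own reads in the 45 kb library and 64 in the 350 kb library, and 60 had them in both. Own reads per window with reads were 472 RPM in the 45 kb and 754 RPM in the 350 kb library (reads scaled to 1000000 kept reads of the library). Of the 63 windows with at least 20 reads over both libraries, 52, or 82.5%, had the higher share in the 350 kb library, against 49.1% of 9320 such windows over the chromosome. The window with most reads, 47880001 to 47885000, had 1900 reads RPM in the 45 kb library, 3255 in the 350 kb library and 1700 in wild type. The window at 47825001 to 47830000 had 1513, 3215 and 2472, and the one at 47565001 to 47570000 had 999, 2264 and 1074. The window at 47860001 to 47865000 was nearly level, with 1448, 1569 and 1564. Single windows of the flank thus differed in the size of the change between libraries.

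**Figure D2:**
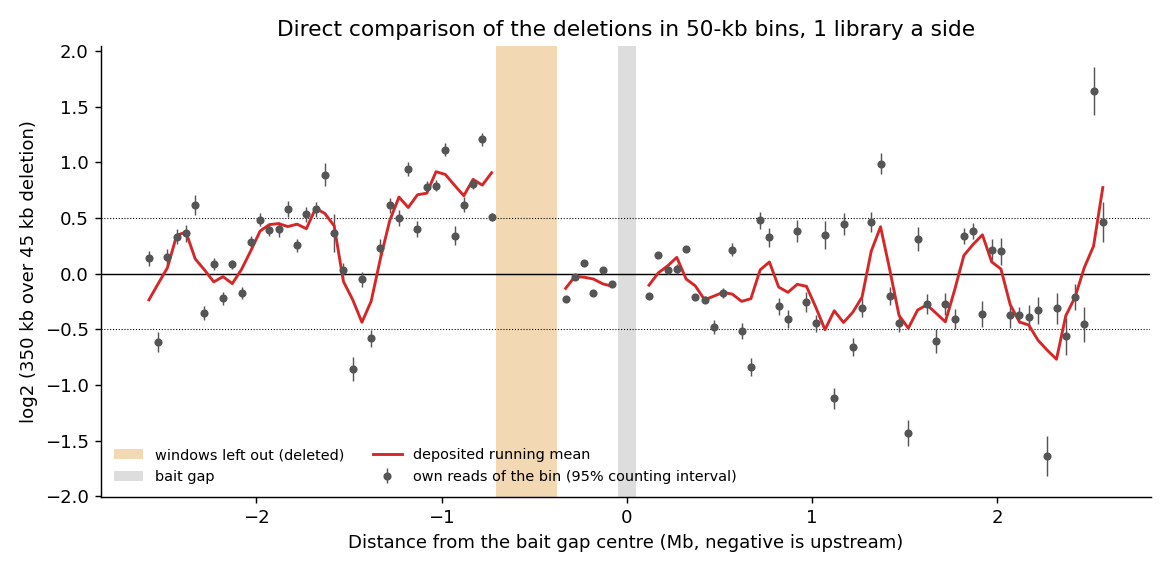
The log2 ratio of the 350 kb to the 45 kb library in 50-kb bins against the distance from the bait gap centre, as the deposited running mean (red line) and as own reads with 95% counting intervals (points). Dotted lines mark 0.5 and -0.5, and all 10 points directly left of the deleted windows (tan) are above 0, from 0.34 to 1.21.

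Farther upstream the difference was smaller and broken up. A run of 11 neighbouring bins past 0.5 ended at 47.35 Mb. Among bins with at least the median signal it was the 1 run of 3 or more past 0.5 in either direction within 5 Mb, and bins with less signal were not counted. From 47.05 to 47.25 Mb the order turned: mean signal was 328 in the 45 kb library, 274 in the 350 kb library and 301 in wild type, a log2 of -0.26 in both the running mean and own reads. From 46.80 to 47.05 Mb the 350 kb library was again higher, with 425 against 305 and 332 in wild type, a log2 of 0.48 (0.49 in own reads). The limits of these stretches were drawn after the values were seen.

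Over the 20 bins from 46.40 to 47.40 Mb, 14 were higher in the 350 kb library, 3 of them past 0.5, with a median log2 of 0.39. In the 23 bins with enough signal from there to 5 Mb upstream, 13 were higher and 10 lower, with a median of 0.03 and 0 past 0.5. Of all 95 bins within 5 Mb with at least the median signal, 48 were higher and 47 lower. The running mean over 150 kb ties neighbouring bins together, so such counts are not of separate bins. By distance class the log2 ratio was 0.83 from 0.5 to 1 Mb upstream. It was 0.43 from 1 to 2 Mb and 0.12 from 2 to 5 Mb. The shares behind the class at 1 to 2 Mb were 3.93% in the 45 kb library, 5.31% in the 350 kb library and 4.39% in wild type. At 2 to 5 Mb they were 8.52%, 9.24% and 9.19%, so the 350 kb library was at the level of wild type there and the 45 kb library below it.

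**Figure D3:**
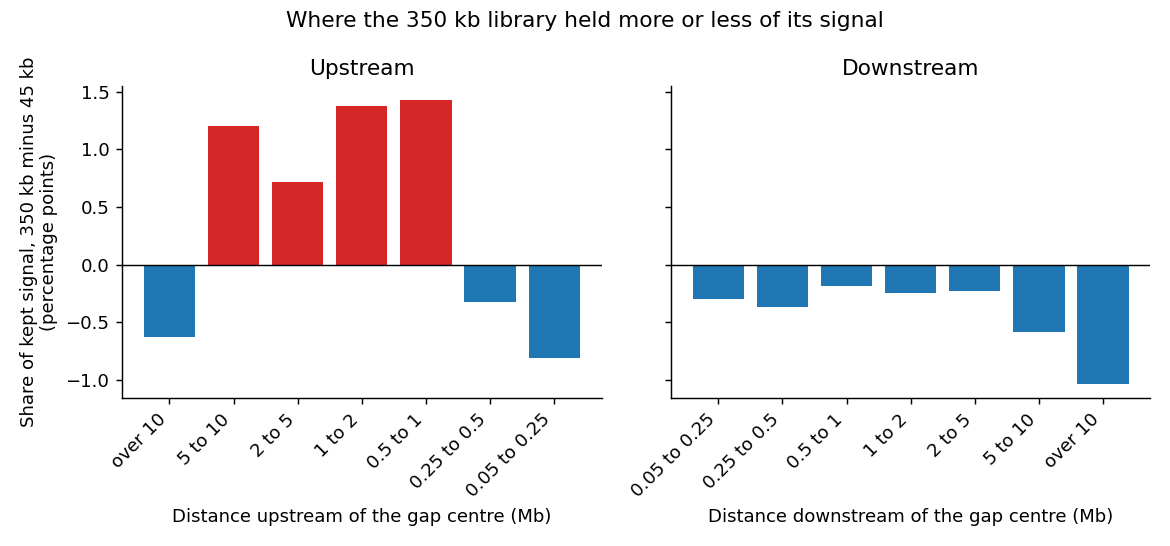
Share of the kept signal in the 350 kb library minus the share in the 45 kb library, in percentage points, by distance upstream (left) and downstream (right) of the gap centre. The 4 upstream classes from 0.5 to 10 Mb are above 0, by 1.43, 1.38, 0.717 and 1.21 points from the nearest outward, and the other 10 classes are below 0 at this scaling.

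The 350 kb library has less DNA left between the flank and the bait than the 45 kb library. Contacts of a bait are known to fall with distance along the DNA, so the upstream signal was also compared at equal remaining distance, the coordinate distance less the DNA deleted in each line. Between 0.7 and 1.7 Mb of remaining DNA the mean signal was 395 in the 45 kb library and 503 in the 350 kb library, a log2 of 0.35 (0.39 in own reads). The nearest 1 Mb at equal coordinates, 46.90 to 47.90 Mb, had 418 and 641, a log2 of 0.62 (0.57 in own reads). These values cover different DNA. At equal remaining distance each library is read at other coordinates. Windows with less than 0.7 Mb remaining, which in the 350 kb library lie in the flank, are left out. In the 45 kb library most DNA at the remaining distance of those flank windows is 47.90 to 48.185 Mb. The comparison leaves this DNA out, so these flank windows were not compared at equal remaining distance. The value of 0.35 is therefore not the difference of the flank with distance allowed for.

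In steps of 100 kb of remaining distance the order was not uniform. Of the 10 steps from 0.7 to 1.7 Mb, 7 were higher in the 350 kb library and 3 lower in the running mean. In own reads the step at 0.9 to 1.0 Mb was lower as well, at -0.23. The first step, 0.7 to 0.8 Mb, had 713 in the 45 kb and 781 in the 350 kb library, a log2 of 0.13 (0.54 in own reads). The step at 1.0 to 1.1 Mb had 455 against 307, a log2 of -0.57. The step at 1.5 to 1.6 Mb had 201 against 568, a log2 of 1.5. In order from 0.7 to 1.3 Mb the steps were at 0.13, 0.61, 0.10, -0.57, -0.49 and -0.35. From 1.3 to 1.9 Mb they were at 0.39, 0.72, 1.5, 1.12, 1.20 and 0.68. From 1.9 to 2.3 Mb they were at -0.50, -1.02, -0.93 and -0.25. The value of 0.35 over 0.7 to 1.7 Mb therefore depends on where the range ends. Up to 4.4 Mb, 22 of 37 steps were higher in the running mean, with a median of 0.06 and a range from -1.02 to 1.5.

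In the running mean a local peak lay at the same coordinate in every library. Between 1.5 and 3 Mb upstream the highest 50-kb bin was at 46.50 to 46.55 Mb in all 3 libraries, with a signal of 870 in the 45 kb library, 894 in the 350 kb library and 994 in wild type. Its coordinate distance was 2.08 Mb, and the remaining distance was 2.04 Mb in the 45 kb library and 1.75 Mb in the 350 kb library. The deposited level of this peak was thus close in both deletions. Its own reads were 6990 and 5342, a log2 of -0.17 after scaling, with 8431 in wild type. In own reads the bin before it, 46.45 to 46.50 Mb, was higher than this one in all 3 libraries, with 9491 in the 45 kb library, 8662 in the 350 kb library and 8547 in wild type, a log2 of 0.08 between the deletions.

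**Figure D4:**
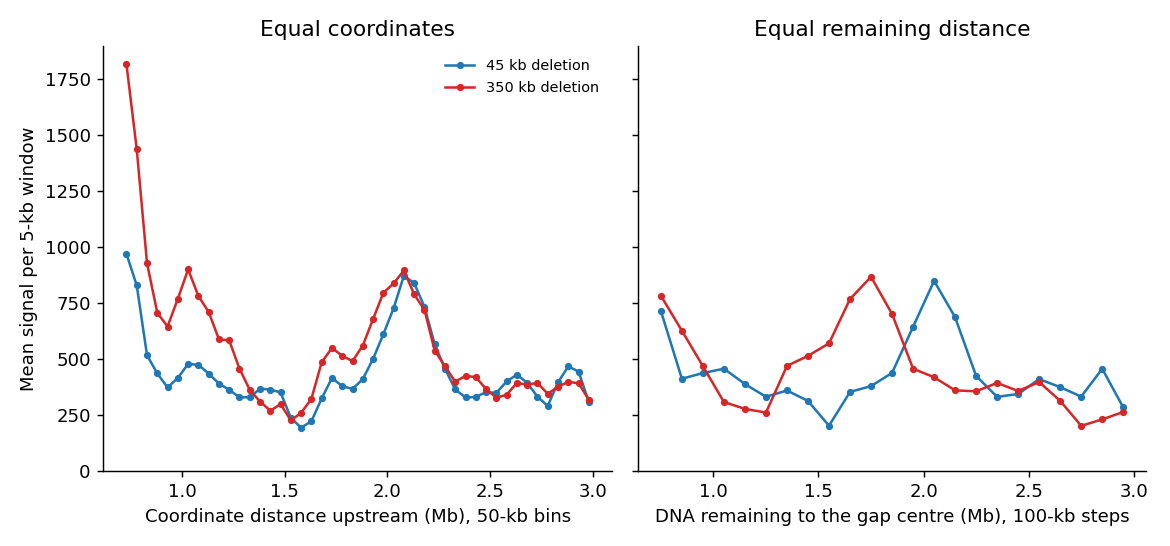
Mean signal upstream of the deletions in the 45 kb (blue) and 350 kb (red) libraries, at equal coordinates in 50-kb bins (left) and at equal remaining DNA in 100-kb steps (right). On the left the peaks near 2.08 Mb coincide and the red line is higher next to the deletion, and on the right the same peaks are apart.

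Between the deletion and the bait the profiles were nearly alike. Mean signal from 48.23 to 48.555 Mb was 6763 in the 45 kb library, 6430 in the 350 kb library and 6601 in wild type, a log2 of -0.07 (-0.06 in own reads, interval -0.06 to -0.05). All 6 whole bins of this stretch were lower in the 350 kb library, between -0.13 and -0.02. In own reads 4 of 6 were lower. The bin nearest to the deletion, 48.25 to 48.30 Mb, had 4371 in the 45 kb library, 3990 in the 350 kb library and 4364 in wild type, a log2 of -0.13 (-0.23 in own reads). The bin with the highest signal, 48.40 to 48.45 Mb, had 8341, 8067 and 8116, a log2 of -0.05. At 48.35 to 48.40 Mb own reads went the other way, with 52054 against 56516 reads and a log2 of 0.10 after scaling. A small change in a common direction here also depends on the scaling: with the values as deposited the stretch was at -0.01.

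The windows at the limits of the rule had these signals. Just below the deletion, the last window kept was at 1123 in the 45 kb library and 2127 in the 350 kb library, and the first window left out was at 1123 in the 45 kb library. Just above it, the first window kept was at 2499 and 2259. These are running means, and own reads there were 1590 in the 45 kb library, 0 in the 350 kb library and 856 in wild type below the deletion, and 526, 0 and 6898 above it. The smoothed values of the 350 kb library at both edges therefore come from neighbouring windows. The windows beside the gap were at 6795 and 6129 below it and at 6279 and 5734 above it.

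Downstream of the bait the 350 kb library was lower in every distance class, except that the nearest class was at 0.0025 with the values as deposited and at 0.0037 with the median of windows. Next to the gap, from 0.05 to 0.25 Mb, the log2 was -0.06. In the classes with limits at 0.25, 0.5, 1, 2, 5 and 10 Mb that follow, it was -0.09, -0.13, -0.14, -0.12 and -0.26. In own reads the 6 values were -0.08, -0.08, -0.17, -0.14, -0.12 and -0.27. With the values as deposited, the classes from 0.25 to 10 Mb were at -0.03, -0.07, -0.08, -0.06 and -0.20. The size of these differences thus depends on the scaling. From 0.5 to 1 Mb the mean signal was 484 in wild type, 394 in the 45 kb library and 359 in the 350 kb library. From 48.70 to 50.60 Mb, 26 of 38 bins were lower in the 350 kb than in the 45 kb library. Over both sides, 47 of the 95 bins within 5 Mb with at least the median signal were lower. In 34 of the 38 bins the 45 kb library was itself below wild type. The 350 kb library was below both others in 26 of these 38 bins, while in the flank the 45 kb library was the lowest of the 3 in all 10. These counts are of the running mean. In own reads wild type was the lowest at 47.45 to 47.50, 47.55 to 47.60 and 47.85 to 47.90 Mb of the flank. Between the deletions, own reads had the sign of the running mean in 7 of 8 bins from 48.70 to 49.10 Mb. From 49.10 to 50.60 Mb they did in 23 of 30.

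The downstream differences in the running mean were small for single bins with at least the median signal. Of the 36 downstream bins within 5 Mb with enough signal, 25 were lower in the 350 kb library, with a median log2 of -0.16, and 1 was past -0.5. This was 49.65 to 49.70 Mb, with a signal of 302 in the 45 kb library, 213 in the 350 kb library and 324 in wild type. Its own reads, 992 against 1086, gave 0.35, so its low value came from its surroundings. The bin at 49.75 to 49.80 Mb was likewise at -0.44 in the running mean and 0.45 in own reads.

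The bins at 50.05 to 50.15 Mb were lower by either measure. At 50.10 to 50.15 Mb the signal was 273 in the 45 kb library, 194 in the 350 kb library and 365 in wild type, and own reads were 2376 and 759, a log2 of -1.43 (-1.55 to -1.31). At 50.05 to 50.10 Mb it was 313, 241 and 419, with an own-read log2 of -0.45. At 50.70 to 50.75 and 50.75 to 50.80 Mb the deposited log2 was -0.43 and -0.46, and -0.37 and -0.39 in own reads. Among bins within 5 Mb with at least the median signal, the other lowest lay upstream. They were at 44.55 to 44.60 Mb (-0.44) and 47.15 to 47.20 Mb (-0.44, but -0.05 in own reads). Bins with less signal were not ranked, and some downstream were lower. From 50.80 to 50.95 Mb the log2 was -0.60, -0.69 and -0.77, and -0.33, -1.64 and -0.31 in own reads. Over all bins within 5 Mb with signal in both libraries, 28 were past 0.5 upward and 10 downward.

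The balance of the 2 sides differed between the deletions outside the nearest 0.5 Mb. Within 0.5 Mb of the gap centre the log2 ratio of upstream to downstream signal was 0.76 in both deletion libraries and 0.58 in wild type. Within 1 Mb it was 0.66 in the 45 kb library, 0.76 in the 350 kb library and 0.50 in wild type. Within 2 Mb it was 0.64, 0.82 and 0.50, and within 5 Mb 0.81, 0.99 and 0.71. The 45 kb library thus already differed from wild type next to the bait, and the further step to the 350 kb library appeared at greater distance.

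A second upstream block with higher signal lay far from the deletion. From 5 to 10 Mb upstream the mean signal was 61.6 in the 45 kb library, 84.6 in the 350 kb library and 60.5 in wild type, a log2 of 0.46 (0.45 in own reads, interval 0.44 to 0.47). Of the 10 bins of 500 kb from 38.5 to 43.5 Mb, 9 were higher in the 350 kb library, 4 of them past 0.5, and 9 were above both the 45 kb library and wild type. The other bin, 39.5 to 40 Mb, was past 0.5 downward, with 46.1 in the 45 kb library, 31.4 in the 350 kb library and 37.0 in wild type, a log2 of -0.56 (-0.52 in own reads). The bin at 40 to 40.5 Mb was at 33.0 in the 45 kb library, 64.7 in the 350 kb library and 29.8 in wild type, a log2 of 0.97. The bin at 41.0 to 41.5 Mb was at 42.8, 78.7 and 56.3 (log2 0.88), and the one at 41.5 to 42.0 Mb at 59.3, 100.4 and 62.8 (log2 0.76).

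The block reached beyond 10 Mb. Of the next 10 bins, from 33.5 to 38.5 Mb, 9 were also higher, 3 of them past 0.5, with a median log2 of 0.36 and a value of 0.69 at 35.0 to 35.5 Mb. The limits at 33.5 Mb and 15 Mb are not among the distance classes. The bin just beyond, 33.0 to 33.5 Mb, was at -0.07, so the count of 9 depends partly on where the limit was drawn. Of all 171 bins of 500 kb over 5 Mb away with signal in both libraries, 80 were higher and 91 lower. At 5 to 15 Mb the 350 kb library held 9.01% of the signal upstream and 4.70% downstream, against 6.79% and 5.34% in the 45 kb library. At 5 to 10 Mb, 479 of 1000 windows had own reads in the 45 kb library and 531 in the 350 kb library, with 67.4 and 83.3 RPM per window with reads.

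Values this far out vary widely between libraries. Of the 89 bins of 500 kb over 5 Mb away with at least their median signal, 10.1% were past 0.5 upward and 13.5% downward, and the log2 of all 171 such bins with signal in both had an SD of 0.47. Of the 5 highest, 1 lay outside the block, at 84.0 to 84.5 Mb, with 33.0 in the 45 kb library and 59.3 in the 350 kb library (log2 0.84). The 5 lowest started at 8.5, 17.5, 22.0, 62.5 and 65.0 Mb, with log2 values of -1.07, -0.97, -0.72, -0.71 and -0.98. In these 5 bins wild type was below the 45 kb library, with signals of 43.1, 46.7, 42.1, 39.4 and 52.0 against 54.5, 63.5, 74.0, 54.0 and 59.4. Over the whole chromosome 17.9% of 993 bins of 50 kb with enough signal were past 0.5 upward and 19.7% downward. Single bins far from the bait are therefore not read as results.

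**Figure D5:**
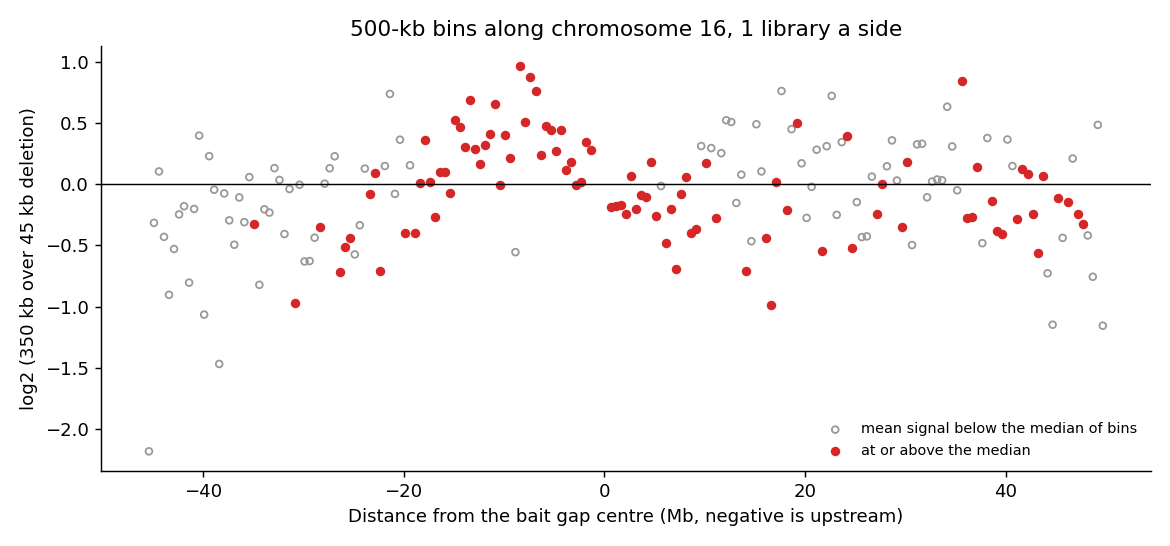
The log2 ratio of the 350 kb to the 45 kb library in 500-kb bins with all windows kept, against the distance from the gap centre. Bins at or above the median signal are filled, and those from about 5 to 15 Mb upstream (negative distances) lie mostly above 0.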

How the data were processed

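Per the labels' protocols, fixed chromatin was cut with HindIII, ligated, cut with DpnII, amplified from the bait and read on an Illumina sequencer. Bowtie2, mm9 and mm10 stand in the submitters' processing notes, with no version. The deposited table holds coverage signal, which the authors scaled to nearly equal totals and averaged over 30 windows of 5 kb, per the file name and the values. It has no chromosome column. Its last window with reads ends at 98315000, so it was read as chromosome 16 of mm9. The hybrid table has another bait and build and was not used here.

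Windows from 47900001 to 48230000 were left out, and each column was multiplied to the 45 kb total (by 0.959 for 350 kb and 1.01 for wild type). Own reads were recovered by undoing the running mean with deleted windows skipped, which gave 0 windows below 0. A value was taken to cover the 15 windows before its own. Placing reads 1 window earlier or later moved the flank's own-read log2 of 0.74 to 0.69 or 0.80. Bins of 50 kb were compared where all their windows were kept and their mean over both libraries was at least the median of the bins compared. Past 0.5 on the log2 scale was counted. Named bins are the 8 highest and 8 lowest within 5 Mb, the 5 highest and 5 lowest bins of 500 kb farther out, runs of at least 3, and all bins of the 2 stretches beside the deletion. The members and lists were chosen with earlier results of these data known. Scripts were tested on simulated data. Tools were Python 3.11.15 with scipy 1.17.1, numpy 2.4.6, matplotlib 3.10.9 and pandas 2.3.3.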

Additional observations from a re-analysis of the deposited data

How the results depend on the processing

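No paired analysis was possible because each group is 1 library. For the same reason no replicate could be left out. Over all results and settings, 157 values moved by more than counting error (counts of bins by more than 1.5 times), 210 did not, and 1 value past the limit of 0.5, that of the bin at 49.65 to 49.70 Mb, reversed. No direction changed among the distance classes from 0.5 to 10 Mb, the flank or the stretch before the bait. With the running mean undone, 21 bins within 5 Mb were higher and 7 lower (13 and 1 as reported), the class at 0.5 to 1 Mb upstream was 0.740, the flank 0.744, the stretch before the bait -0.0572, the balance within 1 Mb 0.114 (0.098 as reported), equal remaining distance 0.387, and the bin at 49.65 to 49.70 Mb 0.347. With totals equal over windows farther than 2 Mb, the lower bins were 0, the class at 1 to 2 Mb 0.449, the stretch -0.0574 and equal remaining distance 0.363. With values as deposited, the lower bins were 0, the upstream classes at 0.5 to 1, 1 to 2 and 5 to 10 Mb 0.892, 0.493 and 0.517, the flank 0.865, the stretch -0.0131 and equal remaining distance 0.407. With the median of far bins set to 0, the lower bins were 0, these classes 0.871, 0.473 and 0.496, the flank 0.845, the stretch -0.0333 and equal remaining distance 0.387. With 500 kb around the gap left out, the lower bins were 2, these classes 0.811, 0.412 and 0.436, the flank 0.784, the stretch -0.0958, the balance 0.287 and equal remaining distance 0.326. With 75 kb beside the deletion left out, the lower bins were 0, the class at 0.5 to 1 Mb 0.811, the flank 0.787, the stretch -0.0585, the balance 0.0779 and equal remaining distance 0.420. Higher and lower bins were 30 and 4 with 25-kb bins, 7 and 0 with 100-kb bins, 20 and 3 with no filter and a pseudocount, 28 and 10 over all bins with signal in both, and 0 and 0 past 1. Distances from the gap edge gave 0.379 at 1 to 2 Mb, and the median of windows gave 0.463 there and 0.563 at 5 to 10 Mb. Downstream next to the gap (0.05 to 0.25 Mb) and over 10 Mb upstream the sign changed in 2 and 1 settings. The cause of these moves was not tested.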

Other observations

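The DNA missing in the 350 kb library alone, 47.90 to 48.185 Mb, can be described in the libraries that keep it. It held 68749 reads in the 45 kb library, 3.88% of all its reads (95% exact binomial interval 3.85 to 3.91%), and 64650 in wild type, 3.77% (3.74 to 3.80%). Contacts were densest at its bait end. The last 35 kb, 48.15 to 48.185 Mb, held 1.15% of the reads of the 45 kb library and 0.967% of those of wild type. The 50 kb from 48.05 to 48.10 Mb held the least, 0.398% and 0.468%. Own reads fell in 33 of its windows in the 45 kb library and in 35 in wild type.

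At 47.90 to 47.95 Mb, next to the flank, wild type had 0.629% of its reads and the 45 kb library 0.493%. At 48.00 to 48.05 Mb the order was opposite, with 0.528% and 0.626%. The 45 kb library was also above wild type at 47.95 to 48.00 Mb (0.564% against 0.554%) and at 48.10 to 48.15 Mb (0.651% against 0.627%). It was below wild type at 48.05 to 48.10 Mb and above it in the last 35 kb, beside its own deletion. The order thus alternated along this DNA, with 1 library each and no test.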
